A study of Mus musculus with 6 samples.

Results

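Transcripts of 36 genes of the lysosome were followed in mouse bone marrow-derived macrophages with and without oxLDL, an oxidised form of low-density lipoprotein that is engulfed by macrophages and delivered to lysosomes. The genes were chosen by symbol and comprise 18 genes of the proton pump, 16 genes of lysosomal membrane proteins, hydrolases and their activators, and the transcription factors Tfeb and Tfe3. All 36 symbols were found among the 24054 genes of the tables, and all 36 passed the filter on low counts, which kept 11400 genes. Both groups came from wild-type C57BL/6 mice, with marrow cells grown for 7 days in medium conditioned by L929 cells. Treated cells received oxLDL at 50 µg/ml for 24 hours and control cells were left without it. Each group held 3 samples, numbered 1, 2 and 3 in the titles. The labels used here give neither the age of the mice nor the meaning of a number or of the word mix in each title, and nothing says that the samples of a group were separate cultures or animals. All p-values rest on the spread among these 6 samples, and that spread may be technical.

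Lysosomes are kept acidic by the V-ATPase, a rotary proton pump. Its V1 sector splits ATP in the cytosol and turns a rotor that drives protons through the membrane-embedded V0 sector. The low pH activates hydrolases that take apart glycans, glycolipids and lipids, among them the cholesteryl esters of lipoproteins. TFEB and TFE3 are transcription factors that enter the nucleus when lysosomes are stressed or nutrients are scarce and bind CACGTG-type motifs, known as CLEAR elements, in promoters of lysosomal genes.

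Because CLEAR elements link the factors to their targets, the promoters of the members were searched for the E-box CACGTG and for its 8-base extension TCACGTGA. Both are palindromes, so a single search covers both strands, and every TCACGTGA contains a CACGTG. RefSeq promoter windows of build GRCm38.p6, which run from 250 bases before a gene's start to 50 bases after it, matched 29 members. The E-box was in 9 of the 29 members (31.0%), beside 8.09% of all genes with a window and 12.1% of the tested genes with a window. The longer motif was in 5 members (17.2%), beside 1.12% of all genes and 2.32% of tested genes. The stretches of 30 bases below show, in capitals, E-boxes of some of these members, though not every E-box of each window.
Mcoln1, chr8:3500462-3500491, plus strand: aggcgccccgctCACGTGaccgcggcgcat
Atp6v0d1, chr8:105566050-105566079, minus strand: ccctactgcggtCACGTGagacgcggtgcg
Atp6v1a, chr16:44139373-44139402, minus strand: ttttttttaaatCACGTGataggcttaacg
Gla, chrX:134601215-134601244, minus strand: taagcgattgatCACGTGagcatctacgtc
Gla, chrX:134601182-134601211, minus strand: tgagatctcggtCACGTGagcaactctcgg
Naglu, chr11:101070009-101070038, plus strand: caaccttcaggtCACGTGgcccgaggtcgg
Lamp1, chr8:13159121-13159150, plus strand: gatgccgactggCACGTGaccacatcacgt
The first 5 stretches hold the longer motif, and those of Naglu and Lamp1 hold the E-box alone. Lamp1 had 4 E-boxes in its window, at 61, 45, 28 and 15 bases before the start, and the stretch shown is the one at 28. Mcoln1 had 2, at 71 and 45 bases before the start, and the one at 45 is shown. The others with an E-box were Atp6v0b, Glb1 and Atp6v0e, the last with the longer motif. Each member shown had a positive log2 fold change with oxLDL, and none passed the edgeR threshold given below. Glb1, not shown, was at -0.02. A match describes these letters in this window and is not a measured binding site. The promoters of the other 7 members, Atp6v0d2, Atp6v0a2, Atp6v1b2, Atp6v1c1, Atp6v1g1, Atp6v1h and Asah1, were not searched.

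With samples matched by number, 1 member of 36 rose with oxLDL and 0 fell. The member was Atp6v0d2, an isoform of the d subunit that joins the pump's rotor to its membrane sector. Genes were tested by quasi-likelihood in edgeR, with the replicate number as a block and Benjamini-Hochberg adjustment over all 11400 genes, and an adjusted p below 0.05 counted as passing. Among all tested genes 1.91% rose and 3.98% fell in the same fit, so the count among the members was near the share of all genes. The words "rose" and "fell" refer to this fit. Without the block 0 members and 0% of all genes passed in edgeR, although 1674 genes had an unadjusted p under 0.05, and the smallest adjusted p among the members was 0.179. In the fit with the block 9 members had an unadjusted p under 0.05 with a higher value and 3 with a lower value, beside 1511 and 1791 of the 11400 genes. DESeq2 with the same block called 8 members higher and 2 lower, while it called 6.17% of all genes higher and 10.1% lower (16.3% in either direction).

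Values of 97.2% of the members lay within 2-fold, beside 87.0% of all tested genes. Their log2 fold changes (oxLDL over untreated) ran from -0.69 to 2.18, with a median of 0.19 beside 0.01 over all tested genes. Values were positive for 24 members (66.7%) and negative for 12, while 51.4% of all tested genes were positive. In pairs 1, 2 and 3 the members that were higher with oxLDL numbered 27, 21 and 16. The median SE of a member was 0.17, equal to that of all tested genes. All 3 numbered pairs went the same way for 12 members that were higher and 7 that were lower, 52.8% of the members, and this was so for 53.3% of all tested genes. Every oxLDL sample lay above every untreated sample for 5 members, beside 10.5% of all tested genes, and below for 1 member, beside 10.6%.

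**Figure D1:**
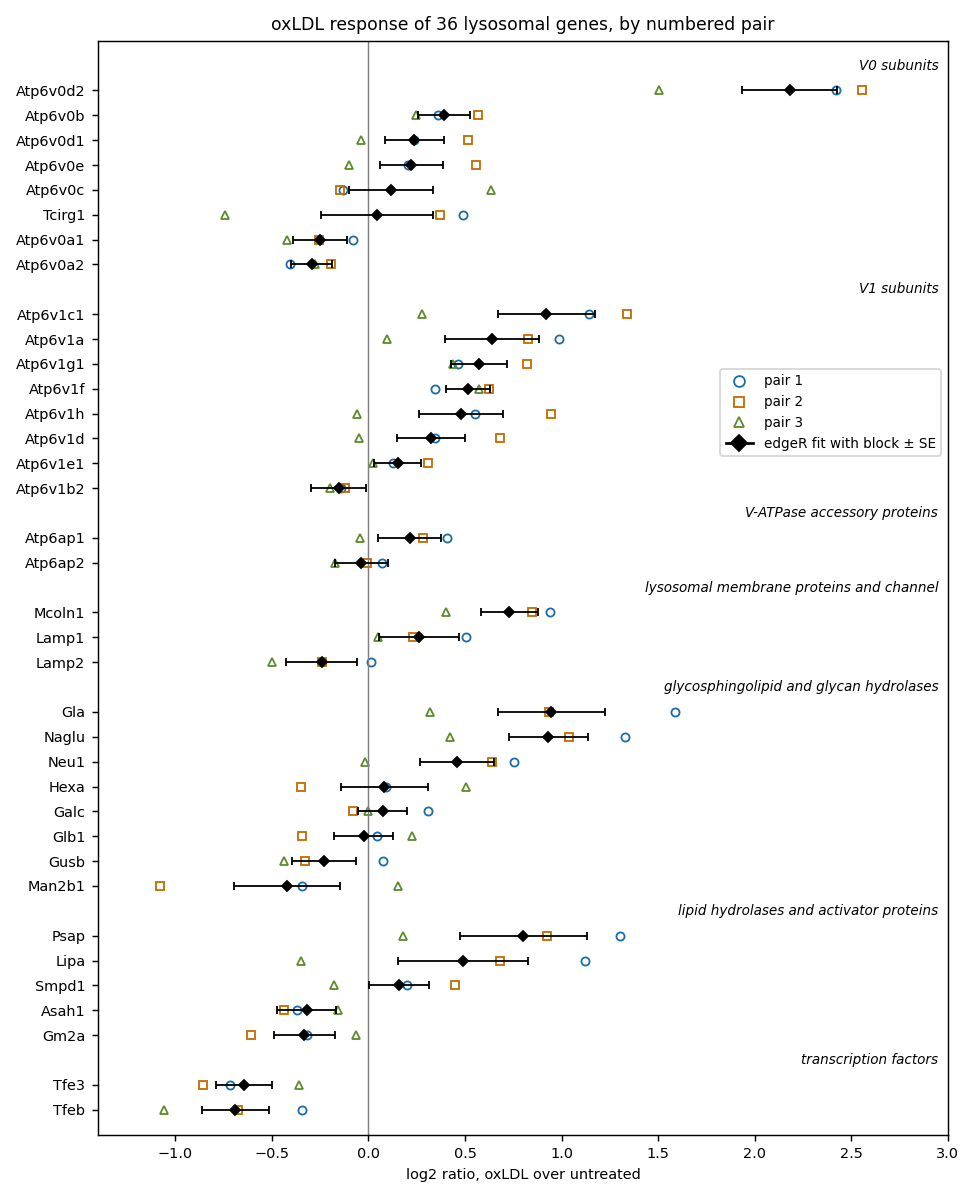
Log2 ratio of oxLDL over untreated for each of the 36 members, ordered within roles. Open symbols are the ratios within numbered pairs 1, 2 and 3, and black diamonds with bars are the edgeR fit with the block ± SE. Atp6v0d2 stands at 2.18, apart from the next member, Gla, at 0.95.

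The V0 sector holds the proton channel. Atp6v0d2 measured 9.83, 22.2 and 11.6 CPM (counts scaled to a common library size with TMM factors) in the control samples, given here and below in the order 1, 2, 3. The oxLDL samples held 53.2, 132 and 33.2 CPM. All 3 treated values lay above all 3 untreated values, and the treated values differed among themselves more than the untreated ones. The means were 14.6 ± 6.71 and 72.6 ± 52.0 CPM (SD, n = 3 per group), and the log2 fold change was 2.18 ± 0.25 (SE; adjusted p in edgeR 0.0288 with the block and 0.184 without). Pair by pair the log2 ratios were 2.42, 2.56 and 1.51 in pairs 1, 2 and 3. Over edgeR fits with the block that left out a pair the adjusted p reached 0.186 when pair 1 was omitted, 0.126 when pair 2 was and 0.000615 when pair 3 was, with fold changes between 1.98 and 2.50.

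Its paralogue Atp6v0d1, the d subunit found in most cells, did not move in the same way. It measured 178, 165 and 195 CPM untreated and 210, 237 and 189 CPM with oxLDL, and the groups overlapped. The fitted change was 0.24 ± 0.15 on the log2 scale (edgeR adjusted p = 0.366). Within each sample the log2 ratio of the CPM of Atp6v0d2 to that of Atp6v0d1 went from -4.16, -2.89 and -4.05 untreated to -1.98, -0.85 and -2.51 with oxLDL. The change in this ratio was 2.18, 2.04 and 1.55 in pairs 1, 2 and 3.

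Atp6v0d2 is also known as a gene of osteoclasts, bone-resorbing cells of the same lineage, so a list of 12 osteoclast markers was read beside it. Their summed level ran from 502 to 741 CPM in untreated and from 663 to 746 CPM in oxLDL samples. The largest part was Clcn7, at 247 to 598 CPM untreated and 408 to 621 CPM with oxLDL, a gene also on the list of lysosomal membrane proteins below. Of the list, 7 were tested, 0 rose and 2 fell. Those that fell were Acp5, the tartrate-resistant acid phosphatase, at -2.72 ± 0.34 on the log2 scale (14.1 ± 6.24 to 2.05 ± 0.50 CPM), and Tnfrsf11a, the receptor RANK, at -1.19 ± 0.12 (97.4 ± 29.9 to 43.8 ± 17.4 CPM). Of the 5 that did not pass, 3 had positive values. The integrin chain Itgb3 measured 2.25, 3.60 and 9.01 CPM untreated and 96.3, 153 and 35.2 CPM with oxLDL, so that its groups did not overlap, as with Atp6v0d2. Its value of 4.23 ± 0.87 on the log2 scale (edgeR adjusted p = 0.0629) was higher than that of Atp6v0d2. The protease gene Ctsk was at 0.93 ± 0.42 and the chloride transporter gene Clcn7 at 0.42 ± 0.19, while Nfatc1 (-0.25 ± 0.11) and Mmp9 (-1.11 ± 0.59) were negative. Itgb3, Ctsk, Clcn7, Nfatc1 and Mmp9 lie outside the rule for named genes and were added after their values had been seen. The markers thus went in both directions. Calcr, Ocstamp, Dcstamp and Oscar measured at most 0.334 CPM in all 6 samples and, like Car2, were not tested. In bulk RNA a change in the number of cells of a type cannot be told apart from a change in RNA per cell.

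Atp6v0b, a proteolipid subunit of the rotor ring, measured 187, 187 and 310 CPM untreated and 240, 277 and 368 CPM with oxLDL. It was higher with oxLDL in each pair, but the groups overlapped because untreated sample 3 lay above oxLDL samples 1 and 2. The fitted change was 0.39 ± 0.14 (log2; edgeR adjusted p = 0.144). Atp6v0e had a log2 fold change of 0.22 ± 0.16 and Atp6v0c, the main proteolipid, one of 0.12 ± 0.22. The expected counts of Atp6v0c were not whole in all 6 samples, which happens when reads are divided between genes.

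The a subunits steer the pump to different membranes, and 3 of their genes were members. Atp6v0a1 measured 386, 405 and 90.8 CPM untreated and 365, 339 and 67.7 CPM with oxLDL. Both samples numbered 3 were low, at -2.12 on the log2 scale untreated and -2.38 with oxLDL against the mean of numbers 1 and 2. Within pairs the values were close, and the log2 fold change with oxLDL was -0.25 ± 0.14 (edgeR adjusted p = 0.295). Tcirg1, the a3 isoform of lysosomes and osteoclasts, measured 281, 363 and 568 CPM untreated and 394, 469 and 339 CPM with oxLDL. It was higher with oxLDL in pairs 1 and 2 (log2 ratios 0.49 and 0.37) and lower in pair 3 (-0.74), which left a fold change of 0.04 ± 0.29. Atp6v0a2, the isoform known from the Golgi, was lower in each pair, at 95.3, 77.7 and 106 CPM untreated and 71.8, 67.8 and 87.3 CPM with oxLDL. The log2 value was -0.29 ± 0.11 (edgeR adjusted p = 0.156). The a subunits were singled out after their values had been seen.

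**Figure D2:**
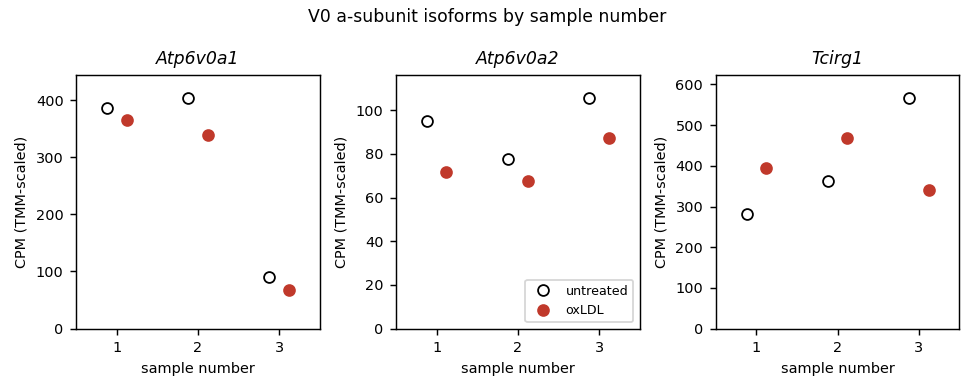
CPM of the 3 a-subunit genes by sample number, with open circles for untreated and filled circles for oxLDL samples, 1 sample each. Atp6v0a1 is at 90.8 and 67.7 CPM in the samples numbered 3 and at 339 CPM or more in the others.

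The V1 sector carries the ATPase. Of its 8 members 0 passed in edgeR with the block, 7 had positive values, and the median was 0.50. Atp6v1c1, the C subunit that clamps V1 to V0, measured 164, 174 and 424 CPM untreated and 361, 439 and 514 CPM with oxLDL. The treated sample of each number was the higher, while untreated sample 3 reached the range of the treated samples. The log2 fold change was 0.92 ± 0.25, with an edgeR adjusted p of 0.0950 in the fit with the block and 0.448 in that without. Pairs 1, 2 and 3 differed by 1.14, 1.34 and 0.28, and DESeq2 with the block called the gene (adjusted p = 0.00709).

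Atp6v1a, the catalytic A subunit, measured 792, 915 and 919 CPM untreated and 1570, 1624 and 981 CPM with oxLDL. The groups did not overlap, yet pair 3 differed by 0.09 on the log2 scale, against 0.99 and 0.83 in pairs 1 and 2. Its fold change was 0.64 ± 0.24 (edgeR adjusted p = 0.172). Atp6v1b2, the B subunit that alternates with A in the same ring, was at -0.15 ± 0.14 and slightly lower in every pair, from 553 ± 120 to 499 ± 120 CPM. The peripheral stalk subunit Atp6v1g1 (0.57 ± 0.15) and the rotor shaft subunit Atp6v1f (0.51 ± 0.11) also had groups that did not overlap. Atp6v1g1 went from 208 ± 41.6 to 306 ± 33.1 CPM and Atp6v1f from 76.9 ± 7.41 to 110 ± 17.2 CPM. Their edgeR adjusted p-values were 0.0834 and 0.0702, and DESeq2 called both (0.0218 and 0.0432). The remaining V1 members were Atp6v1h at 0.48 ± 0.22, Atp6v1d at 0.33 ± 0.18 and Atp6v1e1 at 0.15 ± 0.12.

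The accessory proteins help the pump assemble and reach its membrane. Atp6ap1 measured 418, 468 and 374 CPM untreated and 553, 569 and 363 CPM with oxLDL. It was higher in pairs 1 and 2 and close to level in pair 3, with a fitted log2 value of 0.21 ± 0.16. Atp6ap2, the prorenin receptor, measured 326, 340 and 370 CPM untreated and 342, 338 and 328 CPM with oxLDL (-0.04 ± 0.14). Over all 18 proton pump members the median was 0.23. By pair it came to 0.34 and 0.54 in pairs 1 and 2 but to -0.04 in pair 3.

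Among proteins of the lysosomal membrane, Mcoln1 lay nearest to the threshold. It encodes TRPML1, a cation channel that releases lysosomal calcium. It measured 46.4, 47.8 and 93.8 CPM untreated and 89.3, 85.9 and 124 CPM with oxLDL, higher in each pair, and the groups overlapped through untreated sample 3. The log2 fold change was 0.73 ± 0.15, and the edgeR adjusted p was 0.0595 in the fit with the block and 0.416 in that without. It passed in DESeq2 (adjusted p = 0.00769), in limma-voom (0.0496) and in edgeR when no filter on low counts was used (0.0483). Lamp1 encodes an abundant glycoprotein that coats the inner side of the lysosomal membrane. Lamp1 measured 2563, 2571 and 2273 CPM untreated and 3632, 3018 and 2350 CPM with oxLDL (0.26 ± 0.21). Lamp2, its relative with a part in autophagy, was at -0.24 ± 0.19.

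Of the 8 hydrolases of glycans and glycosphingolipids 0 passed in edgeR with the block, and 5 had positive values. Gla, the alpha-galactosidase that is lost in Fabry disease, measured 153, 250 and 506 CPM untreated and 461, 477 and 631 CPM with oxLDL. It was higher in each pair, by 1.59, 0.93 and 0.32 on the log2 scale, and its untreated values spanned more than the treated ones. The fit gave 0.95 ± 0.28 (log2; edgeR adjusted p = 0.108). Naglu, an enzyme of heparan sulfate breakdown, measured 53.6, 70.7 and 139 CPM untreated and 135, 145 and 186 CPM with oxLDL. It too was higher in each pair, with overlapping groups. The fit gave 0.93 ± 0.20 (log2), with an edgeR adjusted p of 0.0686 in the fit with the block and 0.384 in that without. The sialidase Neu1 was at 0.46 ± 0.19. DESeq2 called Gla (adjusted p = 0.00952) and Naglu (0.00250).

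The other glycan hydrolases did not share these values. Man2b1, the lysosomal alpha-mannosidase, was at -0.42 ± 0.28, and its pairs 1, 2 and 3 differed by -0.34, -1.08 and 0.15. Gusb, the beta-glucuronidase, was at -0.23 ± 0.17, and the beta-galactosidase Glb1 at -0.02 ± 0.15. Hexa, the alpha chain of beta-hexosaminidase, and the galactosylceramidase Galc were at 0.08 ± 0.23 and 0.07 ± 0.13.

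Among lipid hydrolases and their activators, Psap took up 0.871% to 2.35% of all expected counts of a sample. It encodes prosaposin, the precursor of the saposins that present sphingolipids to hydrolases. It measured 9250, 11322 and 13007 CPM untreated and 22834, 21454 and 14708 CPM with oxLDL. The groups did not overlap, but pair 3 differed by 0.18 on the log2 scale while pairs 1 and 2 differed by 1.30 and 0.92. The log2 fold change was 0.80 ± 0.33 (edgeR adjusted p = 0.192), and DESeq2 called it (adjusted p = 0.0232). Lipa, the acid lipase that frees cholesterol from lipoprotein esters, measured 1091, 1365 and 991 CPM untreated and 2376, 2193 and 778 CPM with oxLDL. The treated samples 1 and 2 were above all untreated samples and treated sample 3 was below them all. The fit gave 0.49 ± 0.34 (log2; edgeR adjusted p = 0.387). Smpd1, the acid sphingomyelinase, was at 0.16 ± 0.15, while the acid ceramidase Asah1 (-0.32 ± 0.15) and the GM2 activator Gm2a (-0.33 ± 0.16) were lower in every pair and did not pass.

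The transcripts of both transcription factors were lower with oxLDL in every pair, and neither passed in edgeR. Tfe3 measured 185, 176 and 135 CPM untreated and 112, 97.1 and 106 CPM with oxLDL. It was the only member whose treated samples all lay below the untreated ones. Its log2 fold change was -0.64 ± 0.14, and the edgeR adjusted p was 0.0695 in the fit with the block and 0.179 in that without. Tfeb measured 26.8, 27.6 and 19.1 CPM untreated and 21.1, 17.2 and 9.12 CPM with oxLDL. The groups overlapped because untreated sample 3 lay below oxLDL sample 1. Its log2 fold change was -0.69 ± 0.17 (edgeR adjusted p = 0.0834). DESeq2 with the block called both lower (adjusted p = 0.0104 for Tfe3 and 0.0474 for Tfeb). These factors are regulated largely by where the protein sits in the cell, which these data do not measure.

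**Figure D3:**
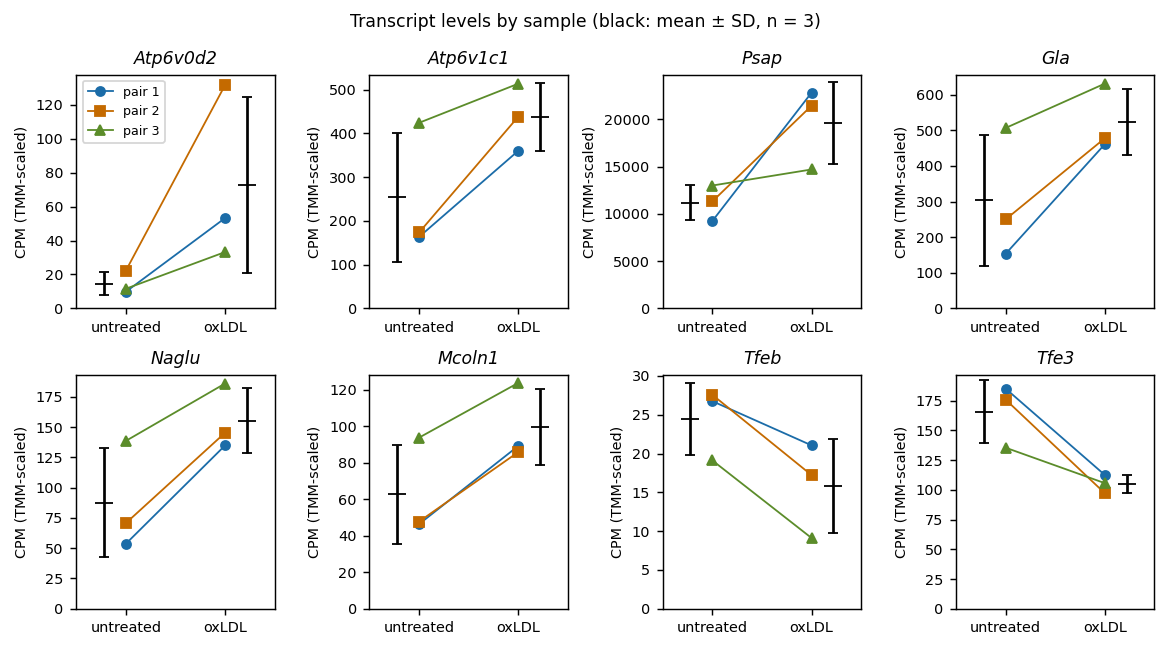
CPM of 8 members by sample, with a line joining the samples of a number and black bars for mean ± SD (n = 3). Lines slope up in every pair for Atp6v0d2, Atp6v1c1, Psap, Gla, Naglu and Mcoln1, and slope down in every pair for Tfeb and Tfe3. Untreated sample 3 is the highest untreated value for Atp6v1c1, Psap, Gla, Naglu and Mcoln1.

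Among the 29 members with a promoter window, those with an E-box had the higher median. The 9 members with CACGTG in the promoter window had a median log2 fold change of 0.39, and 8 of them were positive. The 20 members whose window lacked it had a median of 0.08, and 12 were positive. Tfeb and Tfe3, the lowest of all members, were among these 20. The 7 members without a window, from -0.32 for Asah1 to 2.18 for Atp6v0d2, were in neither group. For the longer motif TCACGTGA the medians were 0.64 over 5 members and 0.10 over 24. Over all tested genes with a window the medians were 0.06 with the E-box (1056 genes) and 0.01 without it (7638 genes). For the longer motif they were 0.06 (202 genes) and 0.01 (8492 genes). These are descriptions of genes chosen by function, and no test was made of them.

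The libraries numbered 3 moved with many of these values. Among the members 8 of 36 differed by more than 1 on the log2 scale between untreated sample 3 and the mean of untreated samples 1 and 2 (22.2%), as did 22.3% of all tested genes. Atp6v1c1, Gla, Neu1 and Naglu were higher there, by 1.33, 1.37, 1.16 and 1.17, and Atp6v0a1, Man2b1, Gm2a and Gusb were lower on the same scale, down to -2.12 for Atp6v0a1. The median log2 ratio of the members was 0.27 in pair 1, 0.34 in pair 2 and -0.03 in pair 3. With pair 3 left out edgeR called 14 members higher and 2 lower, while it called 1618 higher and 1828 lower of 11543 genes tested there. The 2 lower members were Tfeb and Tfe3. With pair 1 or pair 2 left out 0 members and 0 genes were called. Whether pairs differed in their response was not tested, since a pair holds a single library per group.

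Genes around the members were read from lists of the same organelle. Together the 7 lists held 107 tested genes outside the members, of which 4 rose and 9 fell, with a median log2 fold change of 0.07. Over all tested genes 1.91% rose and 3.98% fell, and the counts within single lists were small. Whether the lists differed from all tested genes was not tested. The 11 cathepsins, proteases of the lysosome, had 2 that fell: Ctsc at -1.56 ± 0.19 and Ctsh at -0.94 ± 0.12. Ctsc went from 502 ± 115 to 168 ± 17.9 CPM (edgeR adjusted p = 0.0302).

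Of 26 other lysosomal hydrolases 1 rose and 5 fell. The alpha-glucosidase Gaa, which digests glycogen, rose by 0.66 ± 0.12 on the log2 scale, from 152 ± 35.0 to 240 ± 47.0 CPM. The falls were those of Acp5, given above, the asparaginyl endopeptidase Lgmn (-1.52 ± 0.23), the phospholipase Pla2g15 (-1.18 ± 0.19), the acid phosphatase Acp2 (-1.14 ± 0.14) and the acetyltransferase Hgsnat (-0.98 ± 0.13). Lgmn went from 1562 ± 228 to 558 ± 162 CPM. Hgsnat acts in the same heparan sulfate pathway as Naglu, whose value was positive.

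Of 26 other membrane proteins and transporters 1 rose and 1 fell. Sidt2 rose by 0.72 ± 0.12 and the endolysosomal cation channel Tpcn1 fell (-0.92 ± 0.12). Of 8 tested genes of V-ATPase assembly and regulation, Dmxl2, a rabconnectin that helps V1 and V0 join, rose by 1.24 ± 0.17 on the log2 scale. Vma21, an assembly chaperone of the V0 sector, fell (-0.82 ± 0.12), from 146 ± 43.8 to 81.7 ± 19.4 CPM. Among 13 sorting genes the receptor Sort1 rose by 1.28 ± 0.20.

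Of 22 tested partners and regulators of the TFEB family 0 rose and 0 fell in edgeR with the block. An unadjusted p under 0.05 was reached by 4 with a higher and 0 with a lower value. Over all 11400 tested genes these counts were 1511 and 1791. The 22 values ran from -0.30 ± 0.15 for Mitf, a relative of TFEB, to 1.28 ± 0.54 for Rragb. Rragb, a Rag GTPase, measured at most 1.61 CPM in any sample. Of the 7 other subunit isoforms of the pump only Atp6v1g2 passed the filter on low counts, with a value of 0.07 ± 0.36.

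**Figure D4:**
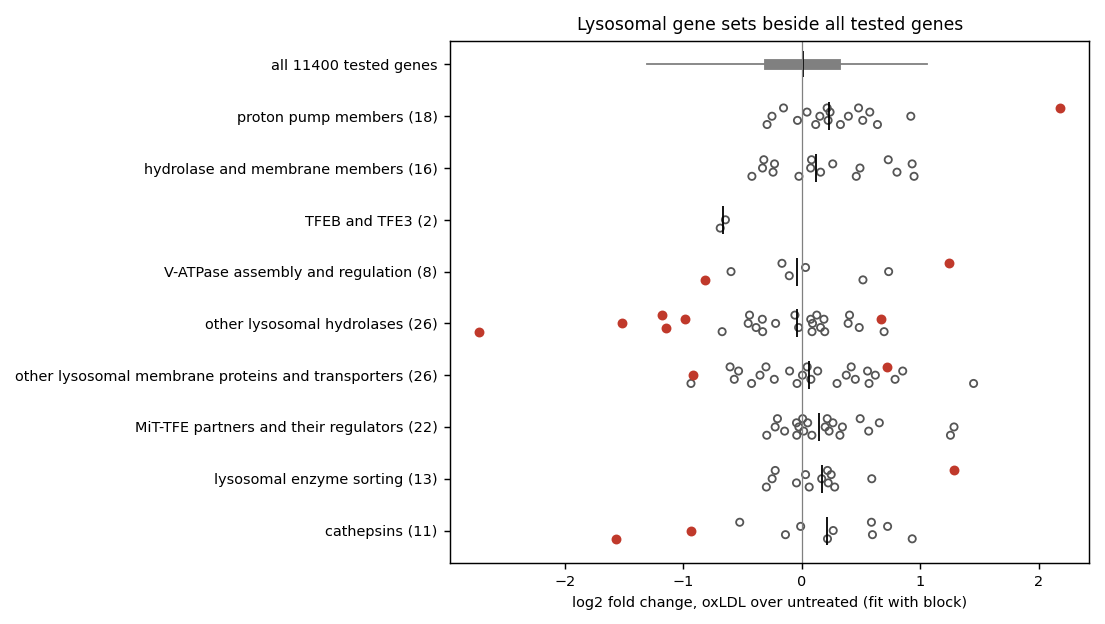
Log2 fold changes of the fit with the block for members and lists, with filled points for genes past an adjusted p of 0.05 and vertical ticks for medians. For all 11400 tested genes the thick bar spans the 25th to 75th and the thin line the 5th to 95th percentile, from -1.30 to 1.06. Atp6v0d2 is the only filled point among the members.

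Sequencing depth was even, with totals of 13546572 to 15559310 expected counts, and the members held 126 to 339430 counts each per sample. The sum over 9 macrophage markers was 13090 to 35980 CPM untreated and 9225 to 16200 CPM with oxLDL. Lyz2 was the highest of them in every sample. Of the 9, 2 fell, Fcgr1 (-3.98 ± 0.44, log2) and Spi1 (-1.13 ± 0.14). Emr1 (-2.36 ± 0.81) and Itgam (-2.14 ± 0.41) did not pass, though every oxLDL sample lay below every untreated one. Cd68 went the other way (0.62 ± 0.25), with every oxLDL sample above, and the groups of the other markers overlapped. Sums of B cell, T cell and fibroblast markers were at most 1.01 CPM in every sample, with Pax5 and Pdgfra at 0 counts. Sums were 6.83 to 28.0 and 1.14 to 4.51 CPM for neutrophil markers, 4.32 to 8.74 and 3.57 to 15.4 CPM for dendritic cell markers and 13.0 to 19.9 and 12.7 to 24.8 CPM for megakaryocyte markers, untreated and with oxLDL. The mast cell sum of 2.80 to 22.3 and 23.3 to 36.4 CPM was nearly all Kit. The part of other cells in the values of the members was not tested.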

How the data were processed

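The authors deposited expected counts per gene and, in a second table, a normalised signal (counts scaled by TMM library size), per the file names. The submitters' processing notes list Bowtie2 2.1.0, RSEM 1.2.15 and edgeR, and the human build hg19 although the samples are mouse. The annotation is not given in the sources used here. Expected counts were rounded. The deposited signal was whole reads times a constant in 100% of values (tolerance 0.005), at least 99.9% equal to the rounded counts, and edgeR called 218 genes higher and 454 lower on either. Promoters are from RefSeq (GRCm38.p6).

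Counts were filtered with filterByExpr (minimum count 10, minimum total 15), scaled with TMM and tested with edgeR 4.0.16 (robust quasi-likelihood) in R 4.3.3, DESeq2 1.42.0 and limma-voom 3.58.1 being alternatives. The scripts were run on simulated counts drawn with the replicate block, so that run could not check the pairing by number. Ratios of pairs use log2 CPM with a prior count of 2. Deviations from group means correlated at r = 0.66, 0.45 and 0.70 between same-numbered samples, above the pairing limit of 0.1. Unlike numbers ranged from -0.76 to 0.63, so some of them passed the limit too. Untreated sample 2 correlated more with oxLDL sample 1 (0.63) than with oxLDL sample 2 (0.45). Untreated sample 1 with oxLDL sample 2 was at 0.20. The limit therefore cannot show that samples 1 and 2 are matched by number, and the block remains an assumption taken from the titles. The members, lists, block and alternatives were chosen with earlier results of these data known, including that edgeR called no gene without the block. Values in all samples are given for members that passed, for Tfeb and Tfe3 and for the 2 members with the largest change in each role. Atp6v0d1, the a subunits, Hgsnat and 5 osteoclast markers were singled out after their values were seen, in addition to this rule. Genes of lists are named where they passed, or else as the highest and lowest. The red cell marker list is not reported here.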

Additional observations from a re-analysis of the deposited data

How the results depend on the processing

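The rise of Atp6v0d2 also passed in DESeq2, limma-voom and edgeR with RLE size factors, without robust estimation or without the count filter. It passed on the reads recovered from the deposited signal too. Those were at least 99.9% equal to the rounded counts, so that fit could hardly differ. The rise did not pass with no replicate block or without pair 1 or 2. Members called higher numbered 1 in the main analysis, 0 with no replicate block, 8 in DESeq2, 2 in limma-voom (beside 2.68% of all genes), 2 without the filter (1.69% of 16358 genes) and 0 to 14 with samples left out. Those called lower numbered 0, and 2 in DESeq2 and 0 to 2 with samples left out. Over all genes DESeq2 called 703 higher and 1150 lower, the fit with no replicate block 0 and 0, and fits with samples left out 0 to 1618 higher and 0 to 1828 lower. Of the lysosome-related list genes DESeq2 called 11 higher and 15 lower, the fit with no replicate block 0 and 0, and fits with samples left out 0 to 32 and 0 to 15. Members with groups that did not overlap numbered 5 to 21 above and 2 to 9 below when a pair was left out. They were 7 and 5 without pair 1 (17.0% and 16.6% of all tested genes), 5 and 2 without pair 2 (14.6% and 14.1%), and 21 and 9 without pair 3 (35.6% and 33.8%). With no replicate block and untreated sample 3 left out, Atp6v1c1, Atp6v1h, Naglu and Tfe3 passed, the last lower, beside 2.53% of all genes higher and 3.81% lower.

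Members near 0 changed sign. Tcirg1 was at -0.0105 with no replicate block. With samples left out, with or without the block, log2 fold changes ran from -0.62 to 0.25 for Atp6v0a1, -0.22 to 0.43 for Tcirg1, -0.15 to 0.32 for Atp6v0c, -0.32 to 0.0298 for Atp6v1b2, -0.10 to 0.0291 for Atp6ap2, -0.21 to 0.13 for Glb1, -0.45 to 0.13 for Gusb, -0.20 to 0.30 for Hexa and -0.0888 to 0.27 for Galc. The cause was not tested. The other 27 members kept their direction in every fit. The fit with the block had 2 residual degrees of freedom, and the limit set by depth was not measured.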

Other observations

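The 36 members took 2.16%, 2.49% and 2.54% of the counted reads without oxLDL, in the order of samples 1, 2 and 3. With oxLDL their share was 4.17%, 4.01% and 2.80%. Psap alone took 0.871%, 1.09% and 1.29% untreated and 2.35%, 2.27% and 1.50% with oxLDL. The other 35 members together took 1.29%, 1.40% and 1.26% untreated and 1.82%, 1.74% and 1.30% with oxLDL. In samples numbered 1 and 2 these transcripts thus made up a larger part of the library with oxLDL, and in those numbered 3 the difference was small. These shares are of counts without TMM scaling. The TMM factors used for CPM were 1.02 to 1.06 with oxLDL and 0.942 to 0.990 untreated, so ratios of CPM are smaller than ratios of shares.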
